A study of Rattus norvegicus with 3 samples.

Results

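Aggrecan, its link protein, 3 matrilins and 4 further proteins known from cartilage, of which lubricin is also made by other tissues, were followed across the cell clusters of the rat mandibular condyle. The 9 genes were chosen by name from the deposited cluster tables, out of 20896 gene names in all, and all 9 were listed in each of the 3 libraries. They were Acan (ENSRNOG00000028992), Hapln1 (ENSRNOG00000032002), Matn1 (ENSRNOG00000010932), Matn3 (ENSRNOG00000056141), Matn4 (ENSRNOG00000014021), Snorc (ENSRNOG00000016606), Ucma (ENSRNOG00000017987), Cnmd (ENSRNOG00000012821) and Prg4 (ENSRNOG00000002385).

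Single-cell RNA libraries were made from cartilage and subchondral bone of wild-type SD rats that had received adeno-associated virus (AAV) in the temporomandibular joint. The sham library came from rats with Vector AAV, the UAC library from rats with unilateral anterior crossbite (UAC, a dental device that alters the bite) and Vector AAV, and the UAC + miR-330 library from rats with the same crossbite and miR-330 AAV. The rats of the AAV experiment were kept for 8 weeks by the study's methods, and the age at the start was not used here. Tissue of 16 condyles from 8 rats went into each library. With 1 library a group no difference has a replicate check, and differences between rats could not be told apart from differences between groups. Intervals below are exact 95% Poisson intervals for a level and exact 95% binomial intervals for a share or a ratio, and they cover counting error only.

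The sham library held 77668015 UMIs (unique molecular identifiers, 1 per captured RNA molecule) in 15 clusters. The UAC library held 92629658 UMIs in 18 clusters, and the UAC + miR-330 library held 97255383 UMIs in 19 clusters. The tables give values per cluster and not per cell, so cell numbers and cell barcodes were not analysed here, and doublets could not be looked for.

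In hyaline cartilage, aggrecan carries chondroitin and keratan sulfate chains and binds hyaluronan, and link protein locks that bond into large aggregates that hold water. Matrilins bridge the aggregates to collagen fibrils. Chondromodulin (Cnmd), Snorc and Ucma are chondrocyte products of particular zones or stages, whereas lubricin (Prg4) is a surface lubricant made by superficial chondrocytes and synovial lining cells.

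The chondrocyte-like cluster was the one with the most enriched chondrocyte markers, none of them among the 9 genes. It was cluster 12 in sham, cluster 16 in UAC and cluster 17 in UAC + miR-330, and 19 of 20 markers were enriched in it in each library. Osteogenic markers were enriched there as well, 11 of 11 in each library, with a summed level of 70913 CPM (UMIs per 1000000 UMIs of the cluster) in sham, 61430 in UAC and 61741 in UAC + miR-330. Col1a1 was the most abundant of them in each library, at 57395, 46960 and 49062 CPM. The chondrocyte markers summed to less, 52571, 41967 and 54754 CPM, with Col2a1 the most abundant at 27180, 19379 and 24344. The cluster therefore held chondrocyte and osteogenic RNA together, and the labels name chondrocytes and osteoclasts only. Of 8 osteoclast markers, 1 was enriched there in each library, Ctsk was the most abundant, and Atp6v0d2, Ocstamp and Calcr were at 0 in all 3 libraries. The cluster took 11.6% of UMIs in sham, 6.46% in UAC and 6.05% in UAC + miR-330. In sums over clusters, fewer cells of a type and less RNA per cell cannot be told apart.

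For reading the other clusters, they were grouped by summed marker levels after the data had been seen. The macrophage-marker cluster was cluster 15 in sham, 9 in UAC and 10 in UAC + miR-330. Its leading genes by fold included Fcnb, Mnda, Mal and Vcan, and none of the macrophage markers was among the leading 10. Neutrophil-marker clusters numbered 2, 4 and 4 in sham, UAC and UAC + miR-330, and B-marker clusters numbered 9, 8 and 9. The clusters outside these groups held 16.6% of UMIs in sham, 23.4% in UAC and 24.2% in UAC + miR-330.

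Acan, the core protein of the aggregate, was concentrated in the chondrocyte-like cluster. Its level there was 1638 CPM in sham (interval 1611 to 1664), 1471 in UAC (1440 to 1502) and 1949 in UAC + miR-330 (1914 to 1985). The 3 intervals did not overlap, with UAC lowest and UAC + miR-330 highest. The direction between UAC and sham depended on the scale, with a log2 ratio of -0.16 in CPM, 0.04 in deposited mean counts and 0.17 relative to the chondrocyte markers of the cluster. The cluster held 97.3% of all Acan UMIs in sham, 97.2% in UAC and 97.0% in UAC + miR-330. Against UAC, the UAC + miR-330 level was higher by 0.41 on the log2 scale (0.37 to 0.45), short of 1.5-fold, and by 0.64 in deposited mean counts, past it.

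Hapln1, the link protein that stabilises aggrecan on hyaluronan, followed the same order in CPM. Its level in the chondrocyte-like cluster was 4885 CPM in sham (4840 to 4931), 4499 in UAC (4445 to 4553) and 6177 in UAC + miR-330 (6114 to 6241). The difference between the crossbite libraries was 0.46 on the log2 scale (0.43 to 0.48), also short of 1.5-fold, and 0.69 in deposited mean counts, past it. Between UAC and sham the log2 ratio was -0.12 in CPM, 0.08 in deposited mean counts and 0.21 relative to the chondrocyte markers, so this direction again depended on the scale. Of all Hapln1 UMIs, 97.0% in sham, 97.6% in UAC and 96.8% in UAC + miR-330 lay in that cluster.

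Matn3, a matrilin of growing cartilage, was highest with miR-330 AAV. Its level in the chondrocyte-like cluster was 46.3 CPM in sham (42.0 to 51.0), 53.3 in UAC (47.6 to 59.5) and 113 in UAC + miR-330 (105 to 122). The sham and UAC intervals overlapped and the UAC + miR-330 interval lay above both. Matn3 was 2.12-fold higher in UAC + miR-330 than in UAC, a log2 ratio of 1.08 (0.89 to 1.28), and 2.44-fold higher than in sham.

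Matn4 did not differ detectably in the chondrocyte-like cluster at this depth. Its level in the chondrocyte-like cluster was 12.2 CPM in sham (10.0 to 14.7), 12.7 in UAC (10.0 to 15.9) and 11.9 in UAC + miR-330 (9.27 to 15.0), from 110, 76 and 70 UMIs. All 3 intervals overlapped. Over all clusters together it was called lower in UAC and in UAC + miR-330 than in sham.

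Matn1, also called cartilage matrix protein, was near 0 in these libraries. The whole sham library held 7 Matn1 UMIs, the UAC library 13 and the UAC + miR-330 library 23. In the chondrocyte-like cluster it had 2 UMIs in sham and 0 in both crossbite libraries, where a limit of 3 counts is 0.502 CPM in UAC and 0.510 in UAC + miR-330, and the upper bound of the Poisson interval is 0.617 and 0.627. B-marker clusters held 4 of them in sham, 8 in UAC and 15 in UAC + miR-330, beside 57.4%, 47.9% and 49.4% of all UMIs. No comparison was made for Matn1.

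Snorc, a small membrane proteoglycan of chondrocytes, was the member that was lower in the crossbite library by the rule used for calls. Its level in the chondrocyte-like cluster was 6750 CPM in sham (6696 to 6804), 4397 in UAC (4344 to 4451) and 5620 in UAC + miR-330 (5559 to 5681). The intervals did not overlap, and UAC was lowest. Snorc fell by 0.62 on the log2 scale in UAC against sham, or 1.53-fold, close to the 1.5-fold limit of the rule. On the scale of the deposited mean counts the same ratio was -0.42, short of the limit.

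Ucma, a secreted protein of growth plate cartilage, differed little. Its level in the chondrocyte-like cluster was 873 CPM in sham (854 to 893), 952 in UAC (927 to 977) and 877 in UAC + miR-330 (854 to 902). The UAC interval lay above the other two, which overlapped.

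Cnmd, chondromodulin, a membrane glycoprotein known to restrain vessel growth, had a level of 152 CPM in sham (144 to 161), 164 in UAC (154 to 174) and 273 in UAC + miR-330 (260 to 287). The sham and UAC intervals overlapped and the UAC + miR-330 interval lay above both. Cnmd was 1.67-fold higher in UAC + miR-330 than in UAC, a log2 ratio of 0.74 (0.62 to 0.85), and 1.79-fold higher than in sham.

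Prg4 had another distribution over clusters. In the chondrocyte-like cluster it had 6 UMIs in sham, 23 in UAC and 429 in UAC + miR-330, or 0.665 (0.244 to 1.45), 3.85 (2.44 to 5.77) and 72.9 (66.2 to 80.1) CPM. The 3 intervals did not overlap. Prg4 was 18.6-fold higher in UAC + miR-330 than in UAC, a log2 ratio of 4.22 (3.64 to 4.92). Sham and UAC were not compared by the rule, since they held fewer than 50 UMIs together.

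In sham and UAC the highest Prg4 level was instead in the macrophage-marker cluster. It was 21.9 CPM in sham (17.2 to 27.4), 45.5 in UAC (40.2 to 51.3) and 45.6 in UAC + miR-330 (40.4 to 51.3), from 74, 267 and 273 UMIs. The UAC and UAC + miR-330 intervals nearly coincided there, whereas those of the chondrocyte-like cluster were far apart. Neutrophil-marker clusters together gave 2.82, 2.99 and 2.97 CPM in sham, UAC and UAC + miR-330. B-marker clusters held 4, 5 and 0 Prg4 UMIs. The chondrocyte-like cluster held 5.56% of Prg4 UMIs in sham (2.07 to 11.7), 6.73% in UAC (4.31 to 9.92) and 57.7% in UAC + miR-330 (54.0 to 61.2).

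**Figure D1:**
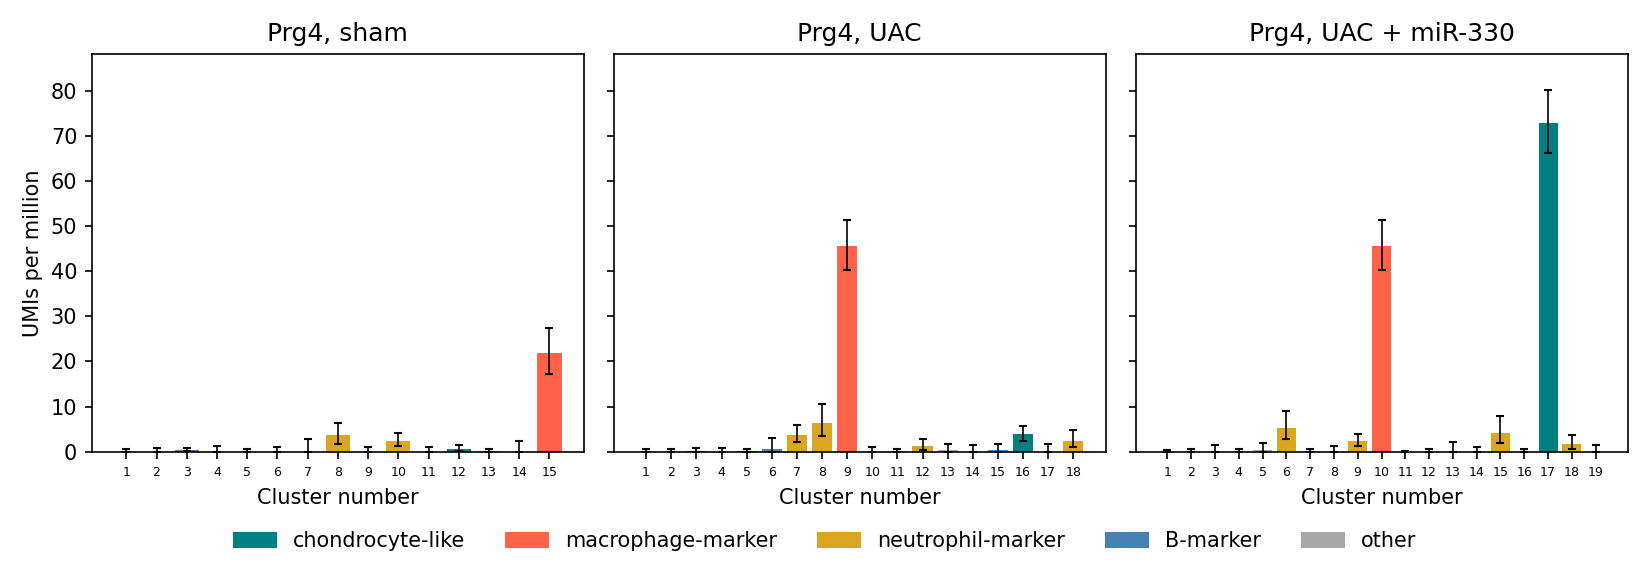
Prg4 in each numbered cluster of the 3 libraries, in CPM, with bars coloured by cluster group and error bars for exact 95% Poisson intervals. The macrophage-marker cluster is highest in sham at 21.9 and in UAC at 45.5, and the chondrocyte-like cluster is highest in UAC + miR-330 at 72.9.

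Markers of other Prg4-expressing tissues were read in the same chondrocyte-like cluster. Of 6 synovial lining markers, 3 were enriched there in each library, and their summed level was 1746 CPM in sham, 1525 in UAC and 1261 in UAC + miR-330, with Htra1 the most abundant at 1131, 929 and 801 CPM. Timp1 had 602, 577 and 447 CPM, Cd55 6.43, 10.5 and 7.14, and Hbegf 6.65, 7.19 and 5.27. Clic5 had 6, 2 and 9 UMIs, and Tspan15 had 2, 2 and 0. Of 4 synovial lining markers tested, 0 were called in either direction in each comparison. Their median log2 ratio was 0.03 in UAC against sham, -0.41 in UAC + miR-330 against UAC and -0.38 in UAC + miR-330 against sham. Of 6 tendon markers, 5 were enriched in each library, with summed levels of 1939, 1558 and 1690 CPM and Fmod the most abundant at 1895, 1498 and 1635. Each of these sums was thus mostly 1 gene, and the sparser markers did not all follow it. Mkx had 20, 10 and 21 UMIs and Kera 16, 1 and 0. Thbs4 had 25.9, 39.3 and 33.5 CPM and was called higher in UAC against sham. It was the 1 called higher of 3 tendon markers tested there, with 0 lower and a median log2 ratio of 0.37. Of all tested genes, 7.3% were called higher in that comparison. Tnmd, a tendon gene related to Cnmd, had 2, 10 and 44 UMIs in sham, UAC and UAC + miR-330. Tnmd was called higher in UAC + miR-330 against UAC, whereas Scx was called lower. Scx, a tendon transcription factor, had 13.7, 17.7 and 10.0 CPM. They were the 1 higher and 1 lower of 4 tendon markers tested there, with a median log2 ratio of -0.05. Of all tested genes, 6.49% were called higher and 5.6% lower in that comparison. Creb5, a regulator of the superficial zone, had levels of 58.6, 46.3 and 68.1 CPM. Fibroblast markers summed to 10330, 9773 and 7362 CPM, with Col3a1 the most abundant at 5091, 4767 and 3624. The list went the other way in UAC against sham, where 3 of 9 tested (Pdgfra, Pdgfrb and Thy1) were called higher and 0 lower, with a median log2 ratio of 0.44. Of all tested genes, 7.3% and 0.915% were. In UAC + miR-330 against UAC, 0 of 9 were called higher and 2 lower (Col1a2 and Thy1), with a median of -0.40. There 6.49% and 5.6% of all tested genes were. Macrophage markers summed to 80.4, 121 and 91.9 CPM, with Cd163 at 0 in each library. Neutrophil markers, none of them enriched there, summed to 1202, 4340 and 858 CPM, led by S100a9 in sham and UAC and by S100a8 in UAC + miR-330. Of 7 skeletal muscle markers, 3 were listed in sham and 4 in each crossbite library, and 2 were enriched in each library. Those listed summed to 133, 33.4 and 91.4 CPM, so the sums do not cover the same genes. Tnni2 was the most abundant of them at 109, 17.2 and 73.9. The part of these cells in the members' differences was not tested.

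**Figure D2:**
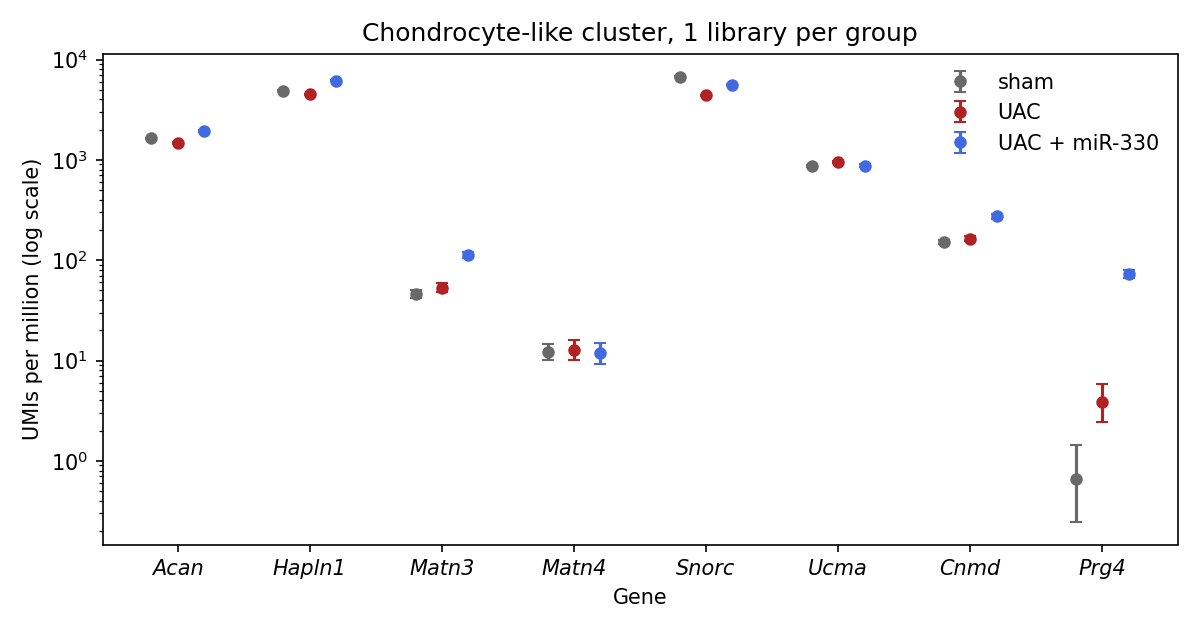
Levels of 8 members in the chondrocyte-like cluster on a log axis, in CPM, with 1 point per library and exact 95% Poisson intervals. Matn3, Cnmd and Prg4 are highest in UAC + miR-330 at 113, 273 and 72.9, and Snorc is lowest in UAC at 4397.

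A gene was called when it had at least 50 UMIs in both libraries together, changed by 1.5-fold or more, and had Poisson intervals that did not overlap. In UAC against sham, 0 of 7 tested members were called higher in the chondrocyte-like cluster and 1 was called lower, Snorc, where 7.3% and 0.915% of 10052 tested genes were. The median log2 ratio was 0.06 over the tested members and 0.14 over all tested genes. Of 18 tested chondrocyte markers, 0 were called higher in UAC against sham and 2 lower (Pth1r and Ihh), with a median of -0.17. Of 11 osteogenic markers, 2 were called higher there (Dmp1 and Spp1) and 2 lower (Alpl and Ifitm5), with a median of 0.05. In UAC + miR-330 against UAC, 3 of 8 tested members, Matn3, Cnmd and Prg4, were called higher and 0 lower, where 6.49% and 5.6% of 9798 genes were. The medians were 0.43 and 0.02. Of 18 tested chondrocyte markers, 7 were called higher in the same comparison and 0 lower, with a median of 0.51. Of 11 osteogenic markers, 4 were called higher (Ibsp, Runx2, Alpl and Phex) and 1 lower, Dmp1, with a median of 0.16. In UAC + miR-330 against sham, the same 3 members were called higher and 0 lower, where 15.7% and 2.75% of 10012 genes were. The medians were 0.30 and 0.15. Of 18 tested chondrocyte markers, 5 were called higher there and 0 lower, with a median of 0.20. Of 11 osteogenic markers, 4 were called higher (Ibsp, Sp7, Runx2 and Phex) and 0 lower, with a median of 0.28. The 3 comparisons share libraries, and Prg4 passed the count minimum in the last 2 of them through UAC + miR-330 alone.

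Over all clusters together, 1 of 8 tested members, Prg4, was called higher in UAC against sham and 7 were called lower, where 6.02% and 5.11% of 14235 genes were. With deposited mean counts 1 was called higher and 4 lower, where 10.4% and 2.94% of the genes were. Matn3, Ucma and Cnmd were the members that lost their call on that scale. Matn3 was 1.502-fold lower in CPM, at the limit, and also lost its call after centring and with 5 UMIs added. Matn4 was among the 7, with 119 UMIs in sham and 82 in UAC and a log2 ratio of -0.79 (-1.22 to -0.37). Acan had 196 CPM in sham and 97.7 in UAC, and Hapln1 was 1.96-fold lower, Snorc 2.75-fold and Ucma 1.65-fold. Col2a1, the main cartilage collagen, was 2.52-fold lower over all clusters and 1.40-fold lower inside the chondrocyte-like cluster, beside the smaller share of UMIs in that cluster given above. In UAC + miR-330 against UAC, Matn3, Cnmd and Prg4 were called higher and 0 members lower, where 9.93% and 2.91% of 14485 genes were. With deposited mean counts Hapln1 was called higher as well, where 26.4% and 1.19% of the genes were. After centring on the median Cnmd lost its call, where 5.36% and 4.82% of the genes were called. In UAC + miR-330 against sham, Prg4 was called higher and 5 members lower, where 17.2% and 7.11% of 14376 genes were. With deposited mean counts 2 members were called higher and 1 lower, where 46.6% and 1.98% of the genes were, so most of the lower calls depended on the scale.

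Scaling moved these background shares. With the deposited mean counts the median over all tested genes rose by 0.20 on the log2 scale in UAC against sham, by 0.24 in UAC + miR-330 against UAC and by 0.43 in UAC + miR-330 against sham, in either set of clusters. In the chondrocyte-like cluster, genes called higher made up 88.9% of calls in UAC against sham, and after centring on the median 443 genes were called higher and 172 lower. The same share was 53.7% in UAC + miR-330 against UAC, and 85.8% with deposited mean counts. It was 85.1% in UAC + miR-330 against sham, 99.1% with deposited mean counts and 59.8% after centring. Over all clusters the share was 54.1% in UAC against sham and 78.0% with deposited mean counts. It was 77.3% in UAC + miR-330 against UAC, 95.7% with deposited mean counts and 52.6% after centring. By the same 3 scalings it was 70.8%, 95.9% and 47.8% in UAC + miR-330 against sham. In a library the deposited mean counts have the same sum in every cluster, so both this scaling and centring add 1 constant to all genes of a comparison, and whether a ratio keeps its sign depends only on its size beside that constant.

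Relative to the chondrocyte markers of the same cluster, the order of the libraries changed for some members. Per 1000 UMIs of the summed markers, Acan had 31.2 UMIs in sham, 35.0 in UAC and 35.6 in UAC + miR-330, and Hapln1 had 92.9, 107 and 113. Both were therefore lowest in sham on this scale, not in UAC. The scale leans on 1 gene. Col2a1 gave 27180 of the 52571 CPM of these markers in sham and 19379 of 41967 in UAC. In UAC + miR-330 it gave 24344 of 54754. Col2a1 was itself 1.40-fold lower in UAC than in sham in this cluster, and the order without it was not tested. Snorc had 128, 105 and 103, so that both crossbite libraries were below sham. The log2 ratio of Snorc in UAC against sham was -0.29 on this scale, short of 1.5-fold. Ucma had 16.6, 22.7 and 16.0, highest in UAC. Matn3 had 0.882, 1.27 and 2.06, Cnmd 2.90, 3.90 and 4.99, and Prg4 0.0127, 0.0916 and 1.33, each highest in UAC + miR-330. Between the crossbite libraries, Cnmd differed on this scale by 0.35 in log2, short of 1.5-fold, Matn3 by 0.70 and Prg4 by 3.83.

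Outside the chondrocyte-like cluster, most members had low levels, given here beside that of Col2a1. In the B-marker clusters of sham, Col2a1 was at 0.171% of its chondrocyte-like level, Acan at 0.293%, Hapln1 at 0.331%, Snorc at 0.293% and Ucma at 0.277%. Acan had 214 UMIs where the Col2a1 ratio would give 125, Hapln1 720 where it would give 372, and Snorc 883 where it would give 514. In UAC + miR-330, Acan had 103 UMIs in these clusters where the ratio would give 115. Hapln1, Snorc and Ucma were above the ratio in that library, with 401, 383 and 70 UMIs where it would give 365, 332 and 51.9. In sham, Matn3 was at 2.03% there, with 42 UMIs where the Col2a1 ratio would give 3.53. The percentage was at 1.44% in UAC and 0.774% in UAC + miR-330, with 34 and 42 UMIs where that ratio would give 2.89 and 6.68. The clusters outside the named groups held 9 Matn3 UMIs in sham and 18 in UAC, where the ratio would give 2.83 and 1.75, and 12 in UAC + miR-330, where it would give 12.0. Neutrophil-marker clusters held 1 Matn3 UMI in each library. As a percentage of its chondrocyte-like level, Matn3 was thus above Acan, Hapln1, Snorc, Ucma and Col2a1 in the B-marker clusters of each library. Members with few UMIs in the chondrocyte-like cluster stood higher, Matn1 at 40.5% and Prg4 at 13.5% in sham, from 4 UMIs each in B-marker clusters.

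A few clusters stood apart. Cluster 14 of sham, led by haemoglobin genes and Igh-6, had Acan at 4.26%, Hapln1 at 4.77%, Snorc at 4.46% and Col2a1 at 3.30% of their chondrocyte-like levels. Cluster 5 of UAC + miR-330, where Igh-6 and haemoglobin genes were again among the leading genes, had Acan at 3.26%, Hapln1 at 2.85%, Snorc at 1.995% with 318 UMIs, Ucma at 3.17%, Cnmd at 2.20% with 17 UMIs and Col2a1 at 3.18%. Acan, Hapln1 and Snorc were above the collagen's percentage in the sham cluster, whereas Hapln1 and Snorc were below it in the UAC + miR-330 cluster. Cnmd was below it in both, at 2.97% with 7 UMIs in the sham cluster. Cluster 13 of UAC, led by mast cell genes such as Cpa3 and Tpsb2, had 171 Snorc UMIs at 1.14% of the chondrocyte-like level, against 0.240% for Hapln1 and 0.356% for Col2a1. Acan was at 0.596% there, Cnmd at 1.25% with 7 UMIs and Matn3 at 2.19% with 4 UMIs.

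Across the 52 clusters, with 11402 genes compared, Pearson's r of log2(CPM + 1) gave the genes most like each member. For Acan they were Col11a2 (0.99), Col9a2 (0.99) and Col2a1 (0.99), for Hapln1 Col2a1, Col1a1 and Col11a2 (each 0.99), and for Snorc Col9a2, Sparc and Col11a2 (each 0.99). For Ucma they were Col9a2, AABR07068316.1 and Col11a2 (each 0.98). Collagen genes were thus among the 3 nearest genes of each of these 4 members. For Cnmd they were Id4, Pdgfra and Scara3 (each 0.97), for Matn3 Scara3, Shox2 and Srpx2 (each 0.93), and for Matn4 Pcdh18 (0.98), Lox (0.97) and AABR07070046.1 (0.97). For Prg4 they included Thbs1 (0.86) and Wdfy3 (0.84), neither of them a cartilage collagen, and for Matn1 no gene was above 0.57. Clusters of 1 library share its depth and free RNA, so these values are a description.

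Genes that work with aggrecan were read in the chondrocyte-like cluster from lists. For all lists, the shares of all tested genes called higher were 7.3% in UAC against sham, 6.49% in UAC + miR-330 against UAC and 15.7% in UAC + miR-330 against sham, and the shares called lower were 0.915%, 5.6% and 2.75%. The medians of all tested genes were 0.14, 0.02 and 0.15. Lists hold few genes and no test was made of them. Of 14 genes for aggregate partners and relatives of the members, 6 were tested in UAC against sham, 2 were called higher (Vcan and Hapln3) and 0 lower. Vcan, a relative of aggrecan, had 8.09 CPM in sham, 22.4 in UAC and 18.4 in UAC + miR-330, and Hapln3, a relative of link protein, had 10.1, 15.4 and 9.86. Vcan was also among the leading genes of the macrophage-marker cluster in each library, and macrophage markers in the chondrocyte-like cluster summed to 80.4, 121 and 91.9 CPM. Their part in the Vcan call was not tested. Of 8 tested in UAC + miR-330 against UAC, 2 were called higher (Has2 and Tnmd) and 0 lower. Tnmd is a relative of Cnmd and no component of the aggregate, and it passed the minimum with 10 and 44 UMIs. Has2, a hyaluronan synthase, had 49.7 CPM in sham, 44.0 in UAC and 85.1 in UAC + miR-330. Vcan, Has2 and Matn2, 3 of 7 tested, were called higher in UAC + miR-330 against sham, and 0 lower. The list's median log2 ratios were 0.47, 0.08 and 0.78 in the 3 comparisons.

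Of 29 genes that build chondroitin and keratan sulfate chains, 25 were tested in each comparison. In UAC against sham 0 were called higher and 2 lower, both sulfotransferases. Chst1 had 21.3 CPM in sham, 11.2 in UAC and 12.7 in UAC + miR-330, and Chst3 had 13.5, 5.85 and 7.82. Between UAC + miR-330 and UAC, 5 were called higher in the former and 0 lower. Xylt1, which starts chondroitin sulfate chains, had 80.4 CPM in sham, 60.4 in UAC and 133 in UAC + miR-330. Slc35d1, a nucleotide sugar transporter, had 84.5, 73.6 and 111. Csgalnact1, which commits the chain to chondroitin, had 31.8, 32.9 and 52.0. Against sham, 6 of 25 were called higher in UAC + miR-330 and 3 lower, where 15.7% and 2.75% of all tested genes were. Chsy3 had 331 CPM in sham, 387 in UAC and 556 in UAC + miR-330, and Chst12 had 85.1, 73.6 and 51.1. The median log2 ratios were 0.00, 0.18 and 0.29 in the 3 comparisons, beside 0.14, 0.02 and 0.15 over all tested genes.

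Of 14 genes of aggrecan and hyaluronan breakdown, 4 of 10 tested were called higher in UAC against sham (Mmp13, Timp3, Adamts5 and Adamts4) and 0 lower, where 7.3% and 0.915% of all tested genes were. The collagenase gene Mmp13 had 140 CPM in sham, 411 in UAC and 251 in UAC + miR-330, and the aggrecanase gene Adamts5 had 8.43, 13.4 and 20.9. Timp3, which codes for an inhibitor of aggrecanases, had 108, 167 and 253. Timp3, Adamts5 and Adamts9, 3 of 11 tested, were called higher in UAC + miR-330 against UAC, and 1 lower, Mmp13. Timp3 and Adamts5 were thus called higher in both comparisons, and Mmp13 in opposite directions. Against sham, 4 of 9 were called higher in UAC + miR-330 and 0 lower. The list's median log2 ratios were 0.41, 0.26 and 0.62, beside 0.14, 0.02 and 0.15 over all tested genes.

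Of 12 SOX factors and regulators of cartilage zones, 10 were tested. In UAC against sham 0 were called higher and 1 lower, Erg, with 13.9 CPM in sham, 8.03 in UAC and 12.9 in UAC + miR-330. Erg is also a gene of endothelial cells. Of 8 endothelial markers, 4 were enriched in the cluster in sham and 0 in each crossbite library, and their summed level was 57.3, 7.86 and 7.82 CPM, with Emcn the most abundant in sham and Egfl7 in the others. Cdh5, Kdr and Emcn were at 0 in both crossbite libraries. Their part in the Erg call was not tested. Sox5 and Sox9, 2 of the 10, were called higher in UAC + miR-330 against UAC, and 0 lower. Sox9, the main activator of cartilage matrix genes, had 357 CPM in sham, 316 in UAC and 512 in UAC + miR-330, and its partner Sox5 had 351, 362 and 640. Sox5, Sox6 and Foxo3 were called higher in UAC + miR-330 against sham, and 0 lower, where 15.7% and 2.75% of all tested genes were. The median log2 ratios were -0.05, 0.54 and 0.34 in the 3 comparisons, beside 0.14, 0.02 and 0.15 over all tested genes.

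Sequences are shown for the microRNA that was delivered and for the upstream region of a pair of members. The mature arms of rat miR-330 were read from RefSeq (GRCr8, chr1:87961227-87961248 and chr1:87961266-87961288, plus strand), with the seed, bases 2 to 8, in capitals.
rno-miR-330-5p: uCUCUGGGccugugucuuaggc
rno-miR-330-3p: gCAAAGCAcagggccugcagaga
The arms have different seeds, and the sequence of the AAV insert was not used here.

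Promoters in RefSeq (GRCr8) matched 5 of the 9 members, Acan, Hapln1, Matn3, Prg4 and Ucma, and the 250 bases before the annotated start were searched on both strands for ACAAAG and ACAAT, letters found in motifs of SOX factors. ACAAAG was in 16.3% of 33469 promoters and in 2 of the 5, Hapln1 and Prg4. The Prg4 window lies inside the outer bounds of that gene, so it may belong to an internal start. ACAAT was in 30% of promoters and in 0 of the 5. Hapln1 (chr2:22366717-22366966, plus strand) is shown with its match in capitals, and Matn3 (chr6:37467479-37467728, plus strand), a member called higher with miR-330 AAV, without one.
Hapln1 promoter: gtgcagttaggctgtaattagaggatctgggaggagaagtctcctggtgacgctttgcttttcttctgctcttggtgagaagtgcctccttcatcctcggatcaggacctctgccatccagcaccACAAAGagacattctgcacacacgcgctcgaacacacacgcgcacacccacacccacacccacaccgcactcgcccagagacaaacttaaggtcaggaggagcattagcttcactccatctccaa
Matn3 promoter: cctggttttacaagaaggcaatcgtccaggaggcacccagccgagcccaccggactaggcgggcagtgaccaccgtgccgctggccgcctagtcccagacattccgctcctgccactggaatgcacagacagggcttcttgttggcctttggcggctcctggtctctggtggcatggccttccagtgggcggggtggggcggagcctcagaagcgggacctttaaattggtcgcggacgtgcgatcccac
A match is a description of letters and not of a bound site, and a missing match says only that the letters are not in this window.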

How the data were processed

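Libraries were prepared with Chromium 3′ v3.1 chemistry from 1 pool per group, and the submitters' processing notes name Cell Ranger 7.0, STAR and Seurat 4.0.1. They name human and mouse genome builds, and the rat build behind the tables is not given in the sources used here. The deposited signal was the authors' mean count of each gene in each cluster, scaled within a library. The deposited columns of log2 fold change and adjusted p-value compare each cluster with the others, and were not used.

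Each mean count was divided by the smallest positive value of its column, and 100% of positive values came out whole within 1e-06. These whole values were taken as UMIs, summed over identifiers that share a name, and expressed as CPM, per 1000000 UMIs of the cluster or library. Log2 ratios were taken after adding 0.5 UMIs. A marker counted as enriched at 10 or more UMIs and a log2 ratio of 1 or more against the other clusters. B-marker clusters had a summed marker level of at least 10000 CPM and neutrophil-marker clusters at least 100000, limits set after the data were seen. The code for calls was tested on simulated counts that carry Poisson error only, which says nothing of differences between rats. With 1 library per group there was no test between conditions.

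Named genes were the members, up to 4 called genes per list, direction and comparison with the most UMIs, the 3 genes with at least 500 UMIs most like each member, and Col2a1. Markers and other genes beyond this rule were named after their values were seen. Some genes that the rule names are not reported here. Members and lists were chosen with earlier results of these data known. Python 3.11.15, numpy 2.4.6, pandas 2.3.3, scipy 1.17.1 and matplotlib 3.10.9 were used.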

Additional observations from a re-analysis of the deposited data

How the results depend on the processing

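No paired analysis was possible because each group had 1 library. With deposited mean counts, 32 of the members' log2 ratios kept their side of the call, 8 lost it and 7 gained it. Centring cost 2 their call, both over all clusters, Matn3 in UAC against sham and Cnmd in UAC + miR-330 against UAC. Adding 5 UMIs cost 1, the same Matn3 ratio, and leaving genes out of the total cost 0. A higher fold limit can only end calls and a lower one only add them, so 14 were lost at 2-fold and 15 gained with no minimum fold. A lower UMI minimum cannot change a ratio already tested.

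Members called in the chondrocyte-like cluster changed as follows. In UAC against sham, 1 was called higher with minimums of 10 UMIs or 1 UMI (Prg4, on 6 and 23 UMIs), and 1 with no minimum fold. There 0 were called lower with deposited mean counts or at 2-fold, and 3 with no minimum fold. In UAC + miR-330 against UAC, 6 were called higher with deposited mean counts, where 16.8% of all tested genes were, and 6 with no minimum fold (15.5%), which also gave 1 lower. Against sham, 5 were called higher in UAC + miR-330 by each of these settings, where 44.4% and 28.1% of genes were, and 1 lower with no minimum fold. With deposited mean counts the added calls stood beside a shift of all genes. At 2-fold, Cnmd lost its call and 2 members were called higher in UAC + miR-330 against UAC and 2 against sham. Over all clusters, 4 were called lower in UAC against sham with deposited mean counts and 2 at 2-fold. In UAC + miR-330 against UAC, 1 was called higher at 2-fold and 6 with no minimum fold, which gave 1 lower. Hapln1 gained a call there with deposited mean counts, where 26.4% of all tested genes were called higher. Cnmd lost its call there after centring, where 5.36% were. Against sham, 2 were called higher in UAC + miR-330 with deposited mean counts or no minimum fold, and 1 lower with deposited mean counts or at 2-fold. Weighting clusters alike, the chondrocyte-like cluster held 91.8%, 96.0% and 94.6% of the summed members in sham, UAC and UAC + miR-330. Apart from what the fold limit and the UMI minimum set by construction, the cause was not tested. In the chondrocyte-like cluster, Matn1, and Prg4 in UAC against sham, were under the main minimum of 50 UMIs.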
